A study of Mus musculus with 36 samples.

Results

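The Plac9 and Tmem254 locus of mouse chromosome 14 holds 5 genes examined here, Plac9a, Plac9b, Tmem254a, Tmem254b and Tmem254c, out of 54115 genes summed from the transcript tables. They were taken as the named copies of 2 genes that stand next to each other, and they were chosen with the differences between genotypes in these same libraries already known, so those differences are given below as a description without a test. The study compared mice lacking both macroH2A histones (dKO, for the genes H2afy and H2afy2) with wild-type (WT) mice, in RNA sequencing of 36 libraries. These were bulk melanomas (6 WT and 6 dKO), tumour-infiltrating CD8+ T cells (4 and 4), cancer-associated fibroblasts sorted on PDGFRα (CAFs, 4 and 4) and immortalized dermal fibroblasts (iDFs) starved and then given serum for 0 or 30 min (2 libraries for each genotype and time).

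The tumour mice of both genotypes carried Braf CA and Tyr-CreERT2, a tamoxifen-inducible Cre driven by the melanocyte tyrosinase promoter, and their tumours were started with 4-hydroxytamoxifen on the back and taken at 50 days after induction. The mice were young adults at induction. The dKO alleles are constitutive, so the stroma and immune cells lack macroH2A too. The mice were of a mixed background that was mostly 129S, with the rest from C57BL/6 and FVB, and none of the sources says which strain's chromosome 14 each animal carried, while the reference transcripts come from C57BL/6J. The iDFs were male cells from skin without tumours, and their 2 libraries per group are experimental replicates rather than separate animals, so that their p-values measure only the spread between those replicates. Total counts assigned to genes ran from 17526681 to 85432438 per library, with the bulk tumours of batch 2 the deepest. The sorted cells held their defining markers. The 7 CD8+ T cell markers summed to between 4590 and 7512 CPM (counts scaled to the size of the library) in the CD8+ libraries and to at most 27.9 CPM in tumours, and 9 fibroblast markers summed to at least 82642 CPM in CAFs and 26969 CPM in iDFs. H2afy, summed over its transcripts, still measured 61.2 to 82.4 CPM in dKO tumours against 90.5 to 122 CPM in WT tumours. Its ranges overlapped in CD8+ T cells, at 72.1 to 93.9 CPM in dKO and 72.8 to 96.5 CPM in WT. They overlapped in CAFs too, at 48.7 to 55.3 CPM in dKO and 51.8 to 60.7 CPM in WT. Such sums count whatever transcript remains outside the deleted part, and so do not check the genotype labels.

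Plac9 encodes a small secreted protein first described in placenta, and Tmem254 encodes a small protein of the membrane; little is known of what either does. Both belong to a stretch that the mouse reference genome holds in several tandem copies. When a stretch has been duplicated recently, the copies carry nearly the same bases, and a short sequencing read from one copy fits the others equally well. A program that assigns reads to transcripts must then divide such reads by model, while the sum over the copies does not depend on that division.

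The 6 genes of the duplicated array lie on the minus strand of GRCm38. In chromosome order they are Plac9a (chr14:25887506-25903100), Tmem254a (chr14:25923300-25927672), Gm9780 (chr14:26027282-26042711), Tmem254c (chr14:26063919-26067355), Plac9b (chr14:26167405-26182480) and Tmem254b (chr14:26203369-26207041). Gm9780 carries the synonym Plac9 in RefSeq and is a further Plac9 copy, which is not among the 5 genes and was added to the Plac9 sum as an alternative chosen after seeing the data. The longest protein-coding transcripts of the copies have 4 exons each, with coding lengths of 327 bases for Plac9 and 372 bases for Tmem254, stop codon included.

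The coding exons 2 and 3 are shown because they make plain why a read cannot be placed on one copy. The letters are those of Plac9a and Tmem254a, from the Gencode transcripts on GRCm38, minus strand, and the same letters were found in every other copy. No base is in capitals since none differs.
Plac9a exon 2, chr14:25890761-25890855, also Plac9b chr14:26170143-26170237: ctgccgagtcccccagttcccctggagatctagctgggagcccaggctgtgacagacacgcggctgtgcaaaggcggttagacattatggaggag
Plac9a exon 3, chr14:25888896-25889019, also Plac9b chr14:26168280-26168403: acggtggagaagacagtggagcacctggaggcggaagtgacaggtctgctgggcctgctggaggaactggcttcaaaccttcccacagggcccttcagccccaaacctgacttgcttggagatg
Tmem254a exon 2, chr14:25925798-25925901, also Tmem254b chr14:26205167-26205270 and Tmem254c chr14:26065551-26065654: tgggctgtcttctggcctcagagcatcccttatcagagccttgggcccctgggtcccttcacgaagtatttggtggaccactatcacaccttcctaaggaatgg
Tmem254a exon 3, chr14:25925522-25925581, also Tmem254b chr14:26204891-26204950 and Tmem254c chr14:26065275-26065334: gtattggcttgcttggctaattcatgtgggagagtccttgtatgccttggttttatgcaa

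Over the exon bases that 2 copies have in common, no difference was found in any pair. Plac9a and Plac9b were compared over 1040 bases, Tmem254a and Tmem254b over 1447 bases, and Tmem254c with either over 1211 bases. What sets the annotated transcripts apart is where they begin and end. Of all distinct windows of 75 bases, the read length, 6 of 1747 in Plac9a occurred in that gene only, 44 of 1276 in Plac9b, 700 of 2631 in Tmem254a, 0 of 1931 in Tmem254b and 0 of 1505 in Tmem254c. The 44 windows of Plac9b all lay in Plac9b-201, a short transcript of 388 bases, and the 700 windows of Tmem254a in Tmem254a-204, whose annotated 3′ end runs farther than that of the other copies. No gene outside the array shared a window with it. Some annotated transcripts are exact duplicates and were absent from the deposited tables: Plac9b-204 equals Plac9a-202, Tmem254b-202 equals Tmem254a-201, Tmem254b-203 equals Tmem254a-202, and both Tmem254b-204 and Tmem254c-203 equal Tmem254a-203. Counts for those sequences therefore stand under the name of the a copy whichever copy was transcribed. The RefSeq promoter windows, 250 bases before to 50 after each start in GRCm38.p6, were found for all 5 genes, and Plac9a and Plac9b shared an identical run of 222 bases there.

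**Figure D1:**
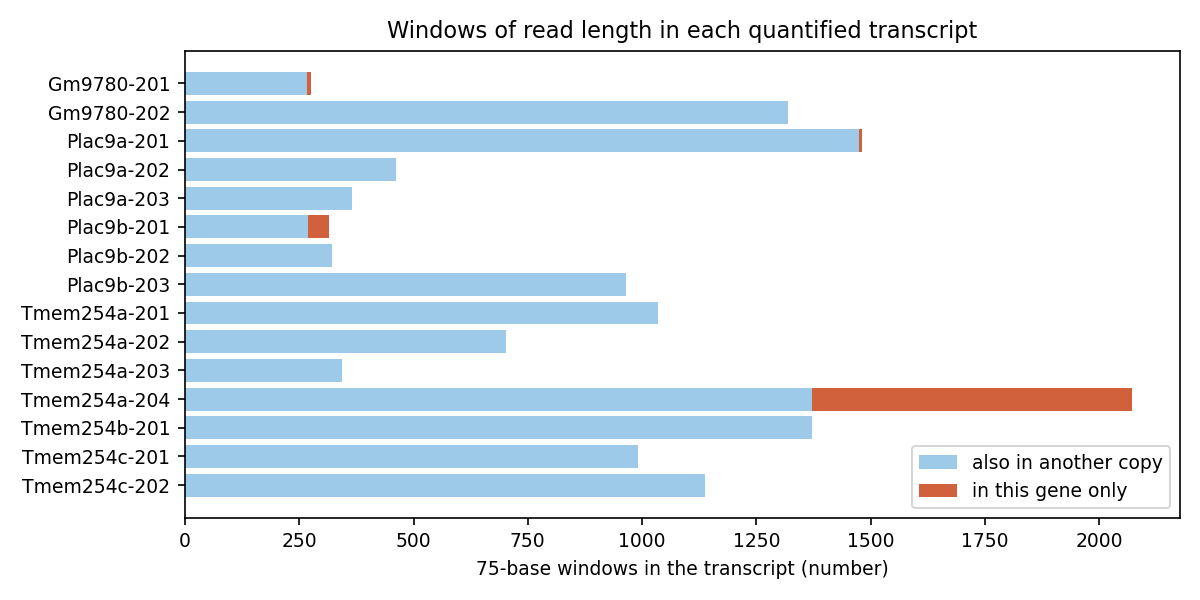
Number of 75-base windows in each transcript of the deposited tables, split into windows that also occur in another copy (blue) and windows found in that gene only (orange). Only Tmem254a-204 holds a long stretch of its own, 700 windows, and Tmem254b and Tmem254c hold none.

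The summed copies gave the levels that follow, in CPM scaled within each experiment by the trimmed mean of M-values (TMM), a factor that corrects for library composition. In WT tumours the Plac9 sum measured 43.5, 50.6, 54.3, 55.7, 71.5 and 87.3 CPM. In dKO tumours it measured 17.9, 19.0, 20.1, 27.6, 37.8 and 38.0 CPM, so the 2 groups did not overlap. The fitted log2 fold change, with batch and sex in the model, was -1.44 (SE 0.16, n = 6 and 6), a 2.71-fold lower level. Of 18097 genes tested in the tumours with the copies kept apart, 0.0442% were called in either direction (adjusted p below 0.05 and an absolute log2 fold change above 0.75, edgeR), and since the locus was chosen on this contrast nothing is read from the difference. The sum was lower in dKO tumours within every batch, with log2 ratios of the means of -1.77, -0.92 and -0.98 in batches 1, 2 and 3 (2 tumours of each genotype in each). It was lower in both sexes as well, at -1.51 in females, where there was only 1 dKO tumour, and -1.48 in males.

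The Tmem254 sum in tumours was tight in the WT group, at 86.7, 93.5, 96.9, 99.8, 103 and 111 CPM. Of the 6 dKO tumours, 5 measured between 31.9 and 37.9 CPM, and dKO replicate 2 stood apart at 75.3 CPM, still below every WT tumour. The fitted log2 fold change was -1.29 (SE 0.23), and -1.49 without dKO replicate 2. It was -1.11 without dKO replicate 5, the only female of that genotype. Within batches the log2 ratios were -1.67, -0.81 and -1.37, and the smallest was that of batch 2, which holds dKO replicate 2. Across the 12 tumours the 2 sums went together, with a Pearson correlation of 0.884 between their centred log2 CPM, a description that includes the genotype difference itself and the depth the 2 sums share.

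Copy by copy, 4 of the 5 genes passed the filter on low counts in tumours, and 1 of them, Plac9b, was called lower by edgeR. That call was lost in 9 of the 12 fits that left out 1 tumour. DESeq2 called 3 lower. The share of all genes that DESeq2 called was not counted, so its 3 calls cannot be set against the edgeR share above. Plac9b had a log2 fold change of -1.55 (SE 0.20) and Plac9a one of -1.27 (SE 0.42). Tmem254a and Tmem254b had log2 fold changes of -1.58 (SE 0.44) and -1.17 (SE 0.21). The 4 copies pointed the same way as their sums. They are not separate readings, since most of their windows are shared and such reads are divided by model. The separate SEs of Plac9a and Tmem254a were the widest of the 4. Tmem254c did not pass the filter, being at 0 CPM in 8 of the 12 tumours.

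In tumours, fewer cells of a type and less RNA per cell cannot be told apart. The fibroblast markers summed to between 12285 and 21593 CPM in WT and between 15566 and 51418 CPM in dKO tumours, with 0 of 9 called by edgeR. Their medians were 15600 and 16943 CPM, and all dKO tumours but replicate 6 were at or below 24128 CPM. The skeletal muscle markers ran from 438 to 4387 CPM in WT and from 385 to 1473 CPM in dKO tumours, with a median log2 fold change of -1.37 and 0 of 5 called. Keratinocyte markers summed to between 6423 and 14569 CPM in WT and between 3666 and 9660 CPM in dKO, with 0 of 5 called. The part of any of these cell types in the lower Plac9 and Tmem254 levels was not tested.

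**Figure D2:**
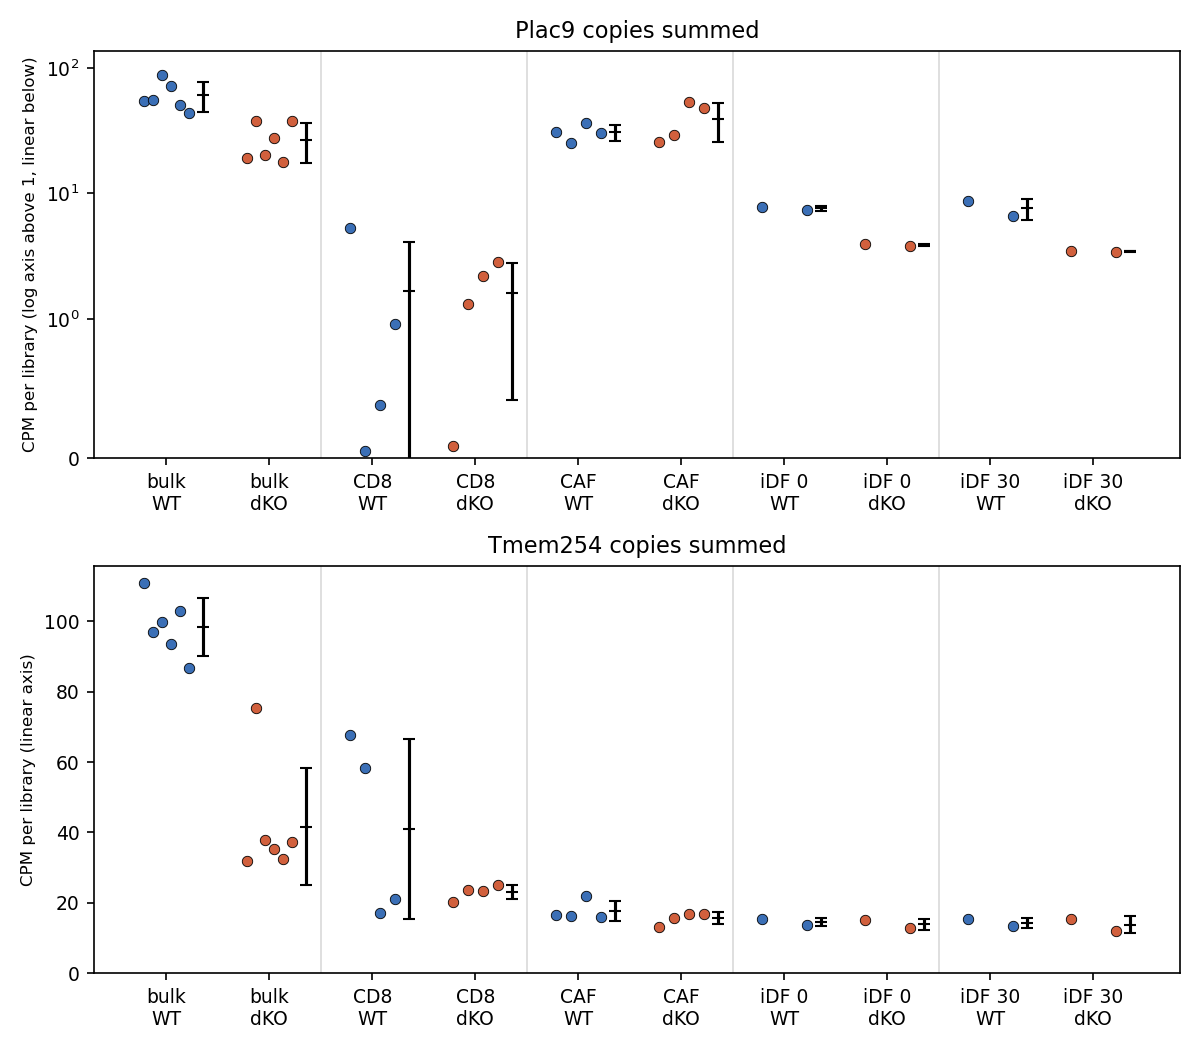
Summed CPM of the Plac9 copies (top, log axis above 1 and linear below) and of the Tmem254 copies (bottom, linear axis) in each library, WT in blue and dKO in orange, with the mean and SD of each group at its right (bars end at 0 where the SD exceeds the mean). WT and dKO tumours do not overlap in either sum, and dKO tumour replicate 2, at 75.3 CPM of Tmem254, lies above the other dKO tumours.

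In CD8+ T cells Plac9 was near the limit of counting. The Plac9 sum measured 0.05, 0.38, 0.97 and 5.28 CPM in WT and 0.09, 1.32, 2.21 and 2.84 CPM in dKO, and the fitted log2 fold change of -0.01 had a 95% interval from -2.73 to 2.72. Those few reads came beside fibroblast markers that summed to between 490 and 3330 CPM in the same libraries, and the part of such RNA in them was not tested. Tmem254, by contrast, was plainly measured in these cells. It was at 17.1, 21.0, 58.2 and 67.6 CPM in the WT libraries and at 20.4, 23.5, 23.8 and 25 CPM in the dKO libraries. WT replicates 1 and 2 stood apart from the other 6 libraries, and all dKO values lay inside the WT range. The log2 fold change was -0.58 (SE 0.33, 95% interval -1.33 to 0.16). Of the 5 genes 4 passed the filter, and 0 of these were called by edgeR or DESeq2, against 0.495% of 14944 genes called by edgeR in this comparison. By each tool 1 copy had an unadjusted p below 0.05, as did 10.2% of all genes by edgeR.

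In CAFs neither sum set the genotypes apart. The Plac9 sum measured 25.3, 30.0, 31.0 and 36.4 CPM in WT and 25.7, 29.3, 47.7 and 53.3 CPM in dKO, with a log2 fold change of 0.29 (SE 0.15, 95% interval -0.06 to 0.64). The upper 2 dKO libraries were the 2 females. The Tmem254 sum measured 15.99, 16.2, 16.4 and 22.05 CPM in WT and 13.1, 15.7, 16.7 and 16.95 CPM in dKO, with a log2 fold change of -0.18 (SE 0.11, 95% interval -0.43 to 0.08). All 5 copies passed the filter and 0 were called by edgeR or DESeq2, with 0 at an unadjusted p below 0.05 by either tool. Of 15786 genes 5.48% were called by edgeR and 26% had an unadjusted p below 0.05. CAFs of dKO mice also had less RNA of keratinocyte markers, with 3 of 5 called lower, and 1 of 7 melanocyte markers called lower.

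In iDFs the 2 families parted. At 0 min the Plac9 sum was 7.84 and 7.31 CPM in WT and 3.92 and 3.81 CPM in dKO. At 30 min it was 8.64 and 6.57 CPM in WT and 3.48 and 3.43 CPM in dKO. The log2 fold changes were -0.97 (SE 0.15) and -1.14 (SE 0.16), so that dKO cells held 0.51 and 0.45 of the WT level. The Tmem254 sum was 15.3 and 13.7 CPM in WT against 15.03 and 12.8 CPM in dKO at 0 min, and 15.3 and 13.3 against 15.5 and 12.1 CPM at 30 min. Its log2 fold changes were -0.06 (95% interval -0.37 to 0.25) and -0.05 (95% interval -0.37 to 0.27), and its groups overlapped at both times. All 5 copies passed the filter in iDFs, and edgeR called 3 of them lower at 0 min and 2 at 30 min, beside 9.13% and 9.05% of 14382 genes called in either direction at these times. Without WT replicate 1 at 0 min the count at 0 min was 0, and without WT replicate 1 at 30 min the count at 30 min was 1. The copies called at both times were Plac9a and Plac9b, whose log2 fold changes of -0.96 and -0.97 at 0 min and -1.16 and -1.13 at 30 min were close to that of their sum. As nearly all windows of these copies are shared, their values are not separate readings. In the same cells 3 of 9 fibroblast markers were called lower in dKO and 2 of 3 tested smooth muscle and pericyte markers higher at each time, and their part in the Plac9 level was not tested. With WT and dKO cells kept as separate cultures, culture and genotype cannot be told apart.

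**Figure D3:**
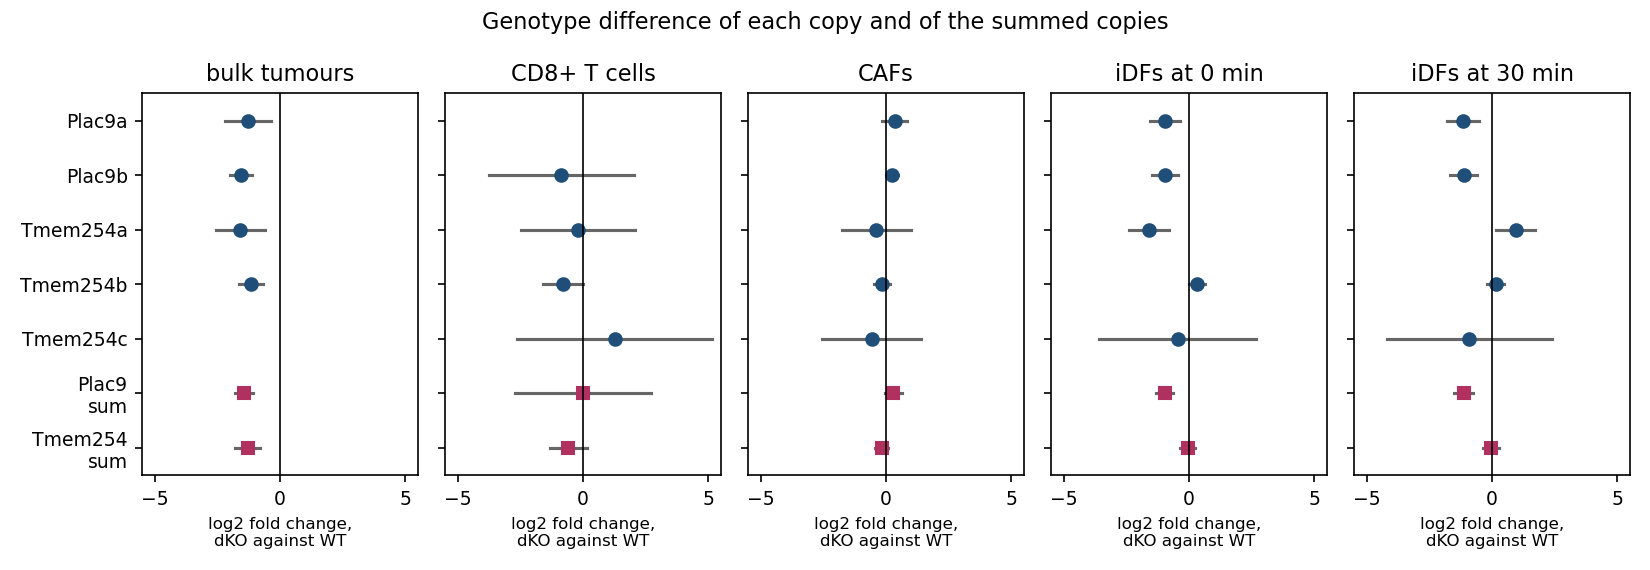
Log2 fold change of dKO against WT for each copy (blue circles) and for the summed copies (red squares) in the 5 comparisons, with 95% intervals from edgeR as lines. The whole interval of the Plac9 sum lies below 0 in tumours and in iDFs at both times, and that of the Tmem254 sum only in tumours. The intervals of Tmem254c span several log2 units wherever it could be fitted.

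The split of reads between copies varied from library to library. Of the Plac9a transcripts, Plac9a-202 held 12623 counts over the 36 libraries, beside 2731 for Plac9a-201 and 31.5 for Plac9a-203. Its sequence equals that of Plac9b-204, so most of the Plac9a share is counts that could come from either copy. Over the 18 WT libraries Plac9a took between 0.0% and 60.7% of the Plac9 counts (median 45.4%), and over the 18 dKO libraries between 11.4% and 100% (median 51.4%). The shares of 0.0% and 100% came from CD8+ libraries with only 1.0 and 2.2 Plac9 counts. Among the tumours, with 476 to 6582 Plac9 counts each, the share of Plac9a still ranged from 6.08% to 55.6% in WT and from 23.0% to 57.4% in dKO. Tmem254b held the largest share of Tmem254 counts of the 3 copies, by its median, with a median share of 71.2% in WT and 74.0% in dKO. Tmem254c took between 0.0% and 40.5%. Within sample types the WT and dKO shares of each copy overlapped in tumours and CAFs, while some Tmem254 shares did not overlap elsewhere. In CD8+ T cells Tmem254b took 80.9% to 90.4% in WT and 64.1% to 77.9% in dKO (4 and 4 libraries). In iDFs at 0 min Tmem254b took 48.8% and 62.6% in WT against 69.4% and 72.7% in dKO, and Tmem254c 37.1% and 28.4% against 27.3% and 22.1%. Tmem254a took 14.2% and 8.96% against 3.28% and 5.16% at 0 min, and 5.87% and 7.38% against 13.3% and 13.0% at 30 min, so its order turned between the times. The 3 shares of a library add up to 100%, so these cases are not independent. How often such shares separate by chance, or at other duplicated genes, was not worked out, and nothing is read from them. The shares of Plac9a and Plac9b overlapped between genotypes in every sample type.

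Within the tumours the counts of some transcripts moved with the labelled batch, in both genotypes. Plac9b-201, the short transcript with windows of its own, took between 20.1% and 36.5% of the Plac9 counts in the 4 tumours of batch 3 and at most 0.36% in the 8 tumours of batches 1 and 2. Tmem254c-201 took between 5.41% and 33.3% of the Tmem254 counts in batch 3 and had 0 counts in the other 8 tumours. Plac9a-201 took 13.7% to 25.2% in batch 1 and had 0 counts in batch 3, and batch 2 was divided, with 17.5% and 18.7% in WT replicate 2 and dKO replicate 6 and 0 counts in the other 2 tumours. WT replicate 6, of batch 3, held the extreme split, with 2.65 CPM of Plac9a beside 40.8 CPM of Plac9b and with 28.8 CPM of Tmem254c, while its sums, 43.5 and 86.7 CPM, were the lowest of the WT group for both genes. Batch 3 was balanced for genotype, with 2 WT and 2 dKO tumours, and the sums were lower in dKO within it, as given above.

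In iDFs Tmem254a, the smallest part of the Tmem254 counts in most of these libraries, measured 2.17 and 1.23 CPM in WT and 0.48 and 0.65 CPM in dKO at 0 min, and 0.90 and 0.99 CPM in WT and 2.07 and 1.56 CPM in dKO at 30 min. Its genotype difference was a log2 fold change of -1.60 at 0 min and 0.95 at 30 min. At 3.28% to 14.2% of the Tmem254 counts it is too small a part for the sum to show whether reads passed to another copy, and this was not tested. Tmem254c was at 0 CPM in dKO replicate 2 at 30 min and at 5.01 CPM in replicate 1, when their Tmem254 sums were 12.1 and 15.5 CPM. In CAFs likewise Tmem254c measured between 2.00 and 5.23 CPM in 7 libraries and 0 CPM in dKO replicate 4, whose sum, 16.95 CPM, was the highest of the dKO group.

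Tmem254a-204 holds the longest stretch of its own among these transcripts, though 1373 of its 2073 windows (66.2%) occur in other copies too, so that part of its reads is still divided by model. Its level is given in TPM, which is scaled for transcript length. In tumours it measured 2.82, 4.45, 4.80, 5.18, 5.44 and 5.51 TPM in WT and 1.34, 1.45, 1.86, 2.62, 2.80 and 3.59 TPM in dKO, with dKO replicate 2 again the highest of its group. The groups overlapped through WT replicate 4, at 2.82 TPM. In iDFs it was at 1.27 and 1.05 TPM in WT and 0.40 and 0.37 TPM in dKO at 0 min, and at 0.73 and 0.54 TPM in WT and 0.79 and 0.84 TPM in dKO at 30 min. The iDF values rest on 12.8 to 40.001 estimated counts per library.

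**Figure D4:**
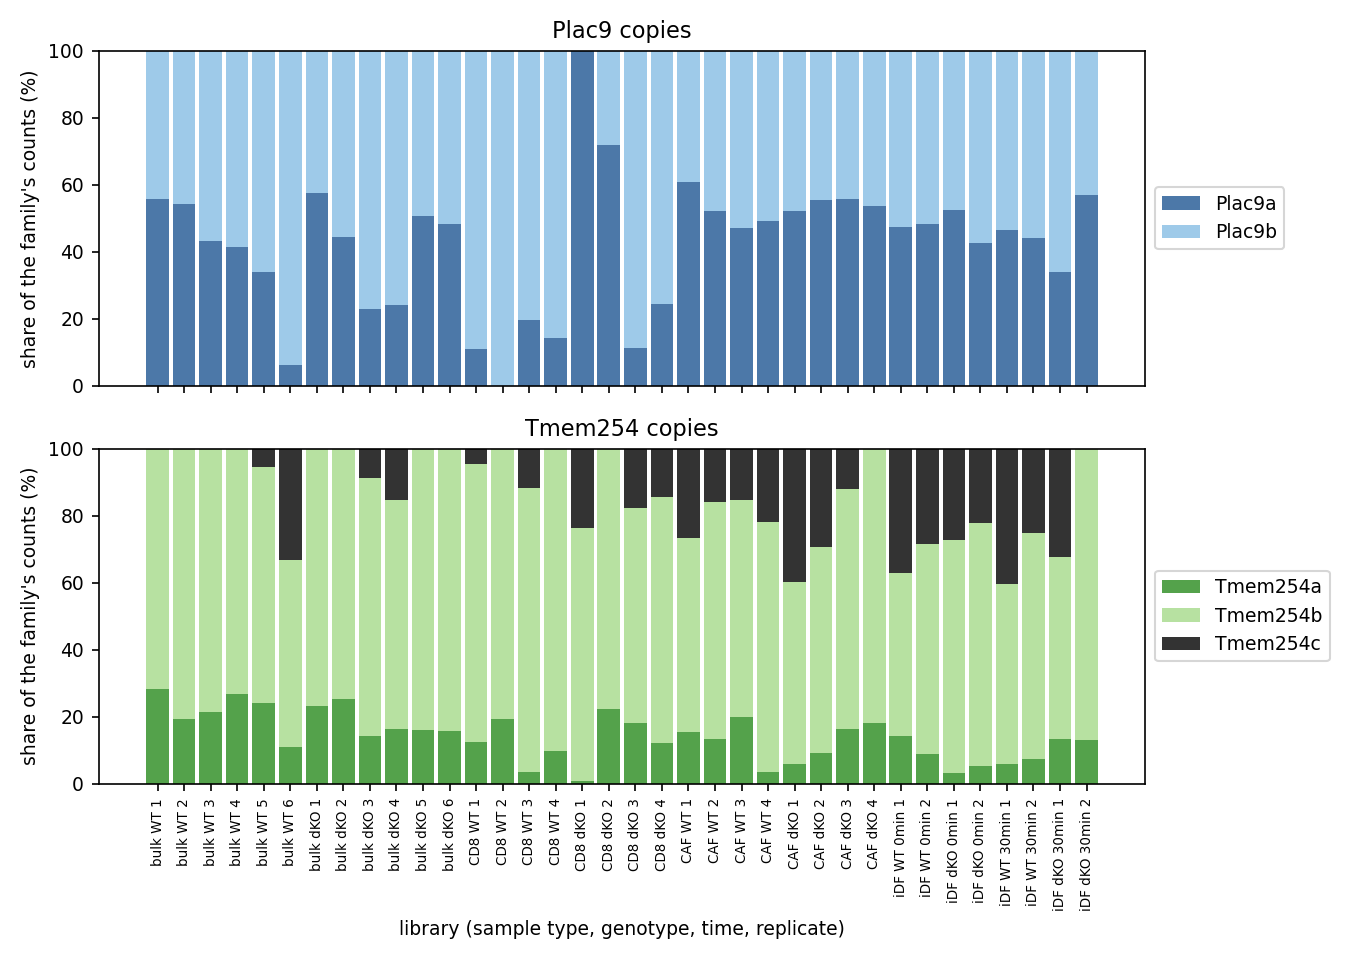
Share of the Plac9 counts (top) and of the Tmem254 counts (bottom) that each copy took in each of the 36 libraries, in percent. Tmem254c appears in only 4 of the 12 tumours, those of batch 3 (WT 5 and 6, dKO 3 and 4), and in CAFs and iDFs it is missing from single libraries.

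Measures that played no part in choosing the locus were tested on the sums. No change with 30 min of serum was detected for either gene in iDFs. The Plac9 sum had a log2 fold change of -0.08 (95% interval -0.33 to 0.17, adjusted p = 0.686, edgeR) and the Tmem254 sum one of -0.02 (95% interval -0.24 to 0.20, adjusted p = 0.918, edgeR), where 3.92% of 14379 genes were called. Both intervals exclude changes past the 0.75 used for a call.

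Between the sexes, CAFs of males had less Plac9 than those of females, with a log2 fold change of -0.56 (95% interval -0.91 to -0.21, 4 and 4 libraries), which did not pass after adjustment over all genes (adjusted p = 0.0902, edgeR), while 1.91% of 15783 genes were called. The Tmem254 sum differed by -0.22 (95% interval -0.48 to 0.03, adjusted p = 0.289, edgeR). In CD8+ T cells the sexes differed in Tmem254 by -0.93 (95% interval -1.68 to -0.19), with an unadjusted p of 0.0200 and an adjusted p of 0.851 from edgeR, and by -1.90 in Plac9 (95% interval -4.58 to 0.78, adjusted p = 0.877, edgeR), where 0.00669% of 14942 genes were called. The 2 WT females held 67.6 and 58.2 CPM of Tmem254, and the 2 dKO females 23.5 and 25 CPM, close to the 17.1 to 23.8 CPM of the 4 male libraries. Without a filter on low counts the adjusted p for Tmem254 was 0.044.

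Across sample types in WT mice, Plac9 and Tmem254 had different orders. For Plac9 no difference between CAFs and whole tumours was detected (log2 fold change -0.47, 95% interval -1.74 to 0.80, adjusted p = 0.552, edgeR). That fit takes 1 spread for all WT types, and its residual SD for the Plac9 sum was 1.58. Within single experiments the residual SD was 2.68 in CD8+ T cells and 0.25 in tumours and in CAFs. The wide interval thus carries the CD8+ spread and cannot decide this comparison. In TPM every WT CAF library (93.1 to 121) lay below every WT tumour (126 to 208). With Gm9780 added to the sum the 2 groups overlapped, at 129 to 177 TPM in WT CAFs and 126 to 216 TPM in WT tumours. Plac9 was 20.6-fold higher in CAFs than in CD8+ T cells (log2 fold change 4.36, SE 0.76, adjusted p = 0.000107, edgeR). Without CD8 WT replicate 1, the library with the most Plac9 and fibroblast RNA of that group, the last value rose to 6.29. Tmem254 was 3.91-fold lower in CAFs than in tumours (log2 fold change -1.97, SE 0.32, adjusted p = 0.000186, edgeR) and 2.02-fold lower than in CD8+ T cells (log2 fold change -1.01, SE 0.33, adjusted p = 0.0124, edgeR). That last call was lost without CD8 WT replicate 1 (-0.48, adjusted p = 0.136, edgeR), without CD8 WT replicate 2 (-0.73, adjusted p = 0.0699) and without CAF WT replicate 2 (-0.84, adjusted p = 0.0566). These 2 comparisons with CAFs called 36.5% and 70.2% of 21412 genes.

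Cultured WT iDFs at 0 min had less Plac9 than WT CAFs, with a log2 fold change of -2.38 (SE 0.90) that passed by a narrow margin (adjusted p = 0.0497, edgeR) and was lost in 12 of 16 fits that left out 1 WT library, namely any tumour, CAF or iDF library (-2.52 to -2.32). The call held without any 1 of the 4 CD8+ libraries, and was lost with Gm9780 added (-2.26, adjusted p = 0.0675, edgeR). Its SE also comes from the spread shared with CD8+ libraries, so the margin does not measure iDFs and CAFs alone. Their Plac9 levels did not overlap, at 29.255 and 29.85 TPM in WT iDFs at 0 min and 93.1 to 121 TPM in WT CAFs. Tmem254 differed by -0.64 (95% interval -1.53 to 0.25, adjusted p = 0.252, edgeR), in a comparison that called 33.0% of genes. Sample types were prepared with different inputs, and CD8+ T cells with a different kit, so type and preparation cannot be told apart. Per length, in TPM, Plac9 stood above Tmem254 in WT CAFs, at 93.1 to 121 TPM for Plac9 against 23.3 to 32.8 TPM for Tmem254. In WT CD8+ T cells the order was opposite, at 0.44 to 8.64 TPM for Plac9 and 15.8 to 66.5 TPM for Tmem254. In WT tumours both were high, at 126 to 208 TPM for Plac9 and 103 to 116 TPM for Tmem254.

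The genes around the array were examined for the same comparisons, counting every annotated gene within 500 kb of the 5 copies. Of 43 such genes, 16 were tested in tumours, 12 in CD8+ T cells, 16 in CAFs and 11 in iDFs. None was called by edgeR in tumours, CD8+ T cells, CAFs or iDFs at 30 min, with 3, 1, 5 and 9 at an unadjusted p below 0.05, and DESeq2 called 1 in tumours and none in the other 3. At 0 min in iDFs 1 was called lower, the Plac9 copy Gm9780 itself (log2 fold change -2.74, SE 0.87, adjusted p = 0.0472, edgeR), which held between 0 and 1.57 CPM there. The counts called by edgeR stand beside the shares of all genes called that are given above, 0.0442% to 9.13%. Of all genes tested, the share at an unadjusted p below 0.05 (edgeR) was 7.52% in tumours, 10.2% in CD8+ T cells, 26% in CAFs and 43.7% in iDFs at 30 min. Among the neighbours it was 3 of 16, 1 of 12, 5 of 16 and 9 of 11, a higher share than over all genes except in CD8+ T cells. Whether these shares differ was not tested.

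Anxa11, the annexin gene next to Plac9a, had a log2 fold change of 0.10 (SE 0.14) in tumours and -0.42 (SE 0.07, adjusted p = 0.0138, edgeR) in CAFs, under the size used for a call. It rose by 0.41 (SE 0.06) and 0.47 (SE 0.06) in iDFs at 0 and 30 min. Slmap, a membrane-associated protein gene on the far side of the array, measured 0.15 (SE 0.17) in tumours, -0.01 (SE 0.11) in CAFs, and 0.44 (SE 0.04) in iDFs at each time. In iDFs all 8 tested protein-coding neighbours outside the array were higher in dKO, by 0.23 to 0.53 at 0 min and 0.31 to 0.54 at 30 min on the log2 scale, each with an adjusted p below 0.05 from edgeR. Plac9 thus went the other way from the genes on both sides of it in iDFs, and Tmem254, at -0.06 and -0.05, moved with neither. Of all genes tested in iDFs, 43.1% at 0 min and 43.7% at 30 min had an unadjusted p below 0.05 (edgeR). The share at an adjusted p below 0.05 was not counted. Whether other stretches of the genome hold as many neighbours that differ in 1 direction was not tested.

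Inside the array, Duxbl1, Duxbl2, Cphx1, Cphx2 and Cphx3, homeobox genes that are themselves in copies, measured at most 3.19 CPM in any library of iDFs, CAFs and CD8+ T cells. In tumours Duxbl2 measured 2.94 to 14.3 CPM in WT and 4.30 to 13.0 CPM in dKO, with a log2 fold change of 0.05 (SE 0.42). Duxbl3, the nearest tested gene beyond Tmem254b, had a log2 fold change of -3.76 (SE 0.63) that was not called by edgeR (adjusted p = 0.106) and was the 1 call of DESeq2. WT replicate 4 stood far above the rest, at 15.03 CPM. The other 5 WT tumours held 0.29 to 3.28 CPM and the dKO tumours 0.11 to 0.76 CPM. The log2 fold change of Duxbl3 without WT replicate 4 is not given here.

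**Figure D5:**
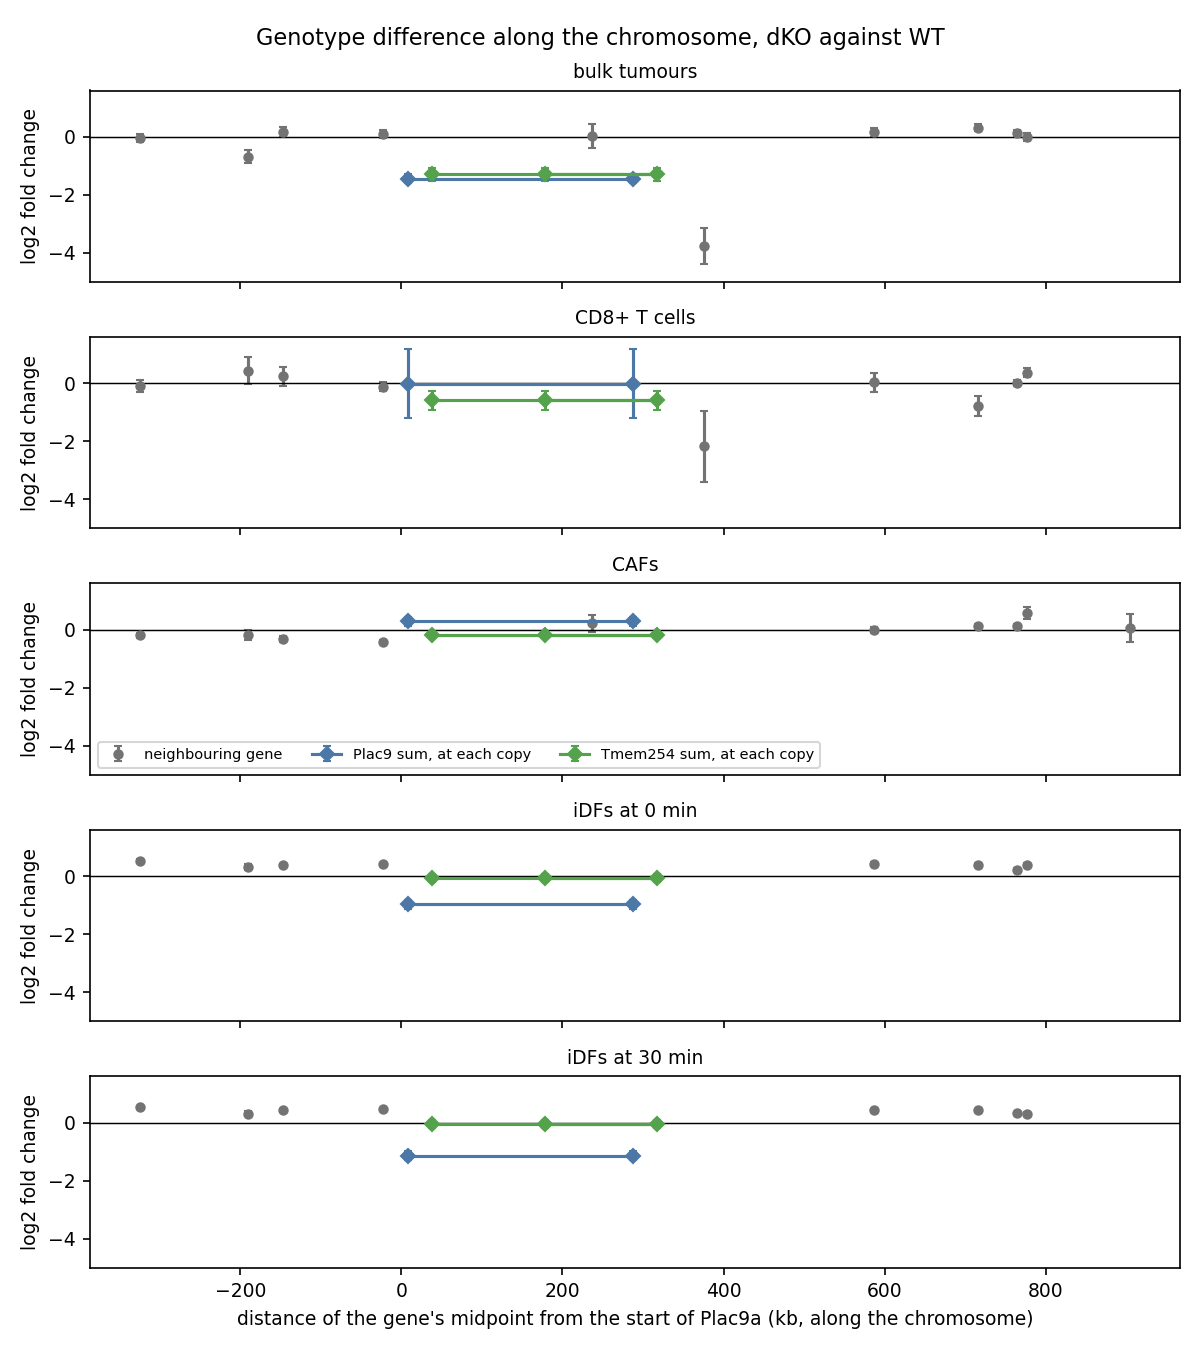
Log2 fold change of dKO against WT, with SE, for the tested protein-coding neighbours other than the Plac9 copy Gm9780 (grey) and for the Plac9 (blue) and Tmem254 (green) sums, the latter drawn at the place of each copy, against distance from the start of Plac9a in kb. In tumours both sums lie below every neighbour drawn but Duxbl3 (-3.76), and in iDFs the Plac9 sum lies below 0 with all 8 neighbours drawn above 0.

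Over all 36 libraries, with log2 CPM centred on each experiment (and on each time in iDFs), the genes most like the Plac9 sum among 10666 compared were Mfap2, a glycoprotein of elastic microfibrils (r = 0.878), Mgst1, a microsomal glutathione transferase (0.839), Lama2, a laminin chain of basement membranes (0.835), Rgma, a membrane-anchored BMP co-receptor (0.832) and Srpx, a sushi-repeat protein (0.818). The genes most like the Tmem254 sum among 8978 compared were Dffa, the inhibitor of the caspase-activated DNase (0.689), Tmem181a (0.680), Dynlt1a, a dynein light chain (0.678), Rpl35a, a ribosomal protein (0.670), and Qars, the glutaminyl-tRNA synthetase (0.657). Tmem181a and Dynlt1a both lie on chromosome 17. The libraries share depth, sort and genotype, and these values describe likeness only. Genes compared with the Plac9 sum had to be expressed in tumours, CAFs and iDFs, yet r also took in the CD8+ libraries. There the Plac9 sum was near the limit of counting. Its residual SD was 2.68 in CD8+ T cells, 0.25 in tumours and in CAFs, and 0.14 in iDFs. How far the Plac9 ranking rests on the CD8+ libraries was not tested. The 2 sums themselves had an r of 0.382 over the 36 libraries, which came to 0.884 in tumours, 0.135 in CD8+ T cells, 0.421 in CAFs and 0.337 in iDFs. For the flanking genes r ran from -0.222 for Zcchc24 to 0.115 for Pde12 against the Plac9 sum, and from -0.26 for Arf4 to 0.585 for Ppif against the Tmem254 sum.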

How the data were processed

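RNA from 36 mouse libraries was read as single ends of 75 bases. The authors quantified transcripts with Salmon 1.2.1 on GRCm38.p6, and deposited for each transcript an estimated count, TPM (abundance scaled for length) and lengths in bases, which served only for effective lengths. Of 140992 transcripts 139791 were given a gene through Gencode, and the rest took 0.246 to 0.521% of counts. Estimated counts were summed per gene, and over the Plac9 and Tmem254 copies, and rounded. A newer Gencode release named the files' transcripts than the one at hand, and both use GRCm38. Genes were kept by edgeR's filter (minimum count 10, total 15), scaled by TMM and tested by the quasi-likelihood test of edgeR 4.0.16 in R 4.3.3, with batch and sex (tumours), sex (CD8+ T cells, CAFs) or group (iDFs, WT types) in the model. A call needs a Benjamini-Hochberg adjusted p below 0.05 over all genes and an absolute log2 fold change above 0.75. DESeq2 1.42.0, other scalings, filters, models and each library left out were alternatives. The fits were tested on simulated data. A further engineered allele, shared by all tumour mice, is not reported here. The members and lists were chosen with earlier results of these data known. Genes named are the 5 copies and their transcripts, the nearest tested protein-coding gene on each side, protein-coding genes between the copies, called neighbours, and the 5 genes of most like pattern. Summed counts carry the depth given above, and SEs cover the spread between libraries.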

Additional observations from a re-analysis of the deposited data

Results flagged for a closer look

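Among 42 groups of 4 to 6 libraries, 6 held a library far from the rest of its group, where the threshold is set so that chance flags about 1 in 20 groups. The 6 are not independent, since a sum and its copies share counts. In dKO tumours replicate 2 was high for the Tmem254 sum (75.3 CPM, the next at 37.9), Tmem254a (19.0 CPM, the next at 7.504) and Tmem254b (56.3 CPM, the next at 31.3). In WT tumours replicate 6 was low for Tmem254b (48.1 CPM, the next at 68.8) and high for Tmem254c (28.8 CPM, the next at 5.56). In WT CAFs replicate 3 was high for the Tmem254 sum (22.05 CPM, the next at 16.4).

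Between 0 and 30 min of serum Tmem254a differed in opposite directions in the 2 genotypes of iDFs. Both libraries at 30 min were below both at 0 min in WT (log2 fold change -0.85) and above both in dKO (1.70), and the difference between the genotypes was not tested. The Tmem254a values rest on 15.5 to 57.9 estimated counts per library, and most of its reads are divided between copies by model. How often 2 libraries per group separate in this way by chance was not worked out. The Tmem254 sum changed by -0.02 in each genotype.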

How the results depend on the processing

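For the sums, the fitted genotype differences kept their sign in tumours and iDFs for Plac9 and in tumours for Tmem254 under every alternative run. In iDFs at 0 min the Plac9 sum moved to -1.20 with an offset for transcript length. With each library left out in turn, the Plac9 sum ranged from -1.49 to -1.34 in tumours, -0.92 to 1.41 in CD8+ T cells, 0.17 to 0.41 in CAFs, -1.03 to -0.92 in iDFs at 0 min and -1.32 to -0.93 at 30 min, and the Tmem254 sum from -1.49 to -1.11, -0.84 to -0.36, -0.27 to -0.09, -0.18 to 0.05 and -0.24 to 0.11. For serum the ranges were -0.19 to 0.01 (Plac9) and -0.12 to 0.07 (Tmem254). For sex they were -2.83 to -0.51 and -1.15 to -0.68 in CD8+ T cells, and -0.68 to -0.45 and -0.31 to -0.11 in CAFs. Between WT types they were -0.57 to -0.33 and -2.10 to -1.92 (CAFs against tumours), 4.09 to 6.29 and -1.14 to -0.48 (CAFs against CD8+ T cells), and -2.52 to -2.32 and -0.74 to -0.56 (iDFs against CAFs). The last Plac9 call also ended without a filter on low counts (-2.37), and with Gm9780 added (-2.26), an alternative chosen after seeing the data. The Tmem254 difference between sexes in CD8+ T cells passed without the filter (-0.92). Calls of single copies held least. In tumours the 1 called copy became 0 with the length offset and without batch, 3 with DESeq2, and 0 to 1 with a library left out. In iDFs the 3 calls at 0 min and the 2 at 30 min each became 1 with the length offset, and with a library left out they ranged from 0 (without WT replicate 1 at 0 min) to 3 and from 1 (without WT replicate 1 at 30 min) to 3. The 0 calls in CD8+ T cells and in CAFs remained 0 with each library left out. Of neighbours, 1 was called without the filter in tumours (Duxbl3) and in CD8+ T cells (the pseudogene Gm2260), and 1 by DESeq2 in tumours, while in iDFs at 0 min the 1 call became 0 without the filter. With a library left out the neighbours called ranged from 0 to 1 in iDFs at each time and stayed at 0 in the other 3 comparisons. The share of Plac9a had a median of 67.3% and that of Plac9b 32.7% when taken from TPM. The causes were not tested. The paper calls the iDF libraries experimental replicates and does not say whether same-numbered ones were handled together. The deviations of same-numbered libraries from their group means correlated at 0.02 to 0.317 over 6 pairs. With 2 libraries per group the 2 deviations mirror each other, so any positive value puts each library best with its own number. An effect shared by same-numbered libraries was not tested, and the main fits leave the replicate number out. With the replicate number as a block the Plac9 sum was -0.97 at 0 min and -1.13 at 30 min, and 3 copies were called at each time. In CD8+ T cells the low level of Plac9, 1.0 to 102.6 counts in a WT library, limits what can be seen of it.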
